A study of Mus musculus with 2 samples.

Results

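The genes described here encode subunits of the respiratory chain and of ATP synthase, together with some close relatives that share their names. They were chosen by gene symbol, taking probe sets that name a single gene whose symbol begins with Nduf, Uqcr, Atp5 or Cox4 to Cox8, or is Sdha, Sdhb, Sdhc, Sdhd or Cyc1. Cox7a1 and Cox8b were left out. This gave 88 of the 22180 named genes on the array, with 40 genes of complex I, 4 of complex II, 9 of complex III, 17 of complex IV and 18 of ATP synthase. By known function, 76 of the 88 are subunits out of 83 nuclear-encoded subunits listed, and the other 12 are 8 assembly factors of complex I, Cox7a2l, Ndufa4l2 and the pseudogenes Uqcrh-ps1 and Atp5c1-ps. Of the listed subunits that are not included, Cox6c, Ndufb2, Ndufb4, Ndufs6 and Uqcr10 were named only by probe sets that also name other genes, and the rest were not analysed here. The 13 subunits that mitochondrial DNA encodes were not analysed here either.

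The data compare epididymal fat of A/J-12SM mice with that of A/J mice. A/J-12SM is a consomic strain, in which chromosome 12 comes from the SM/J strain and the rest of the genome from A/J. All animals were males, caged singly, kept on standard chow until 6 weeks of age and given high-fat food over the next 7 weeks, and tissue was taken after a 4-h fast. For each strain, RNA of 3 mice was pooled and hybridized to 1 whole-transcript array, so the spread between mice is not known, no difference given here has a test or a p-value, and levels are log2 RMA values. In such bulk tissue, fewer cells of a type and less RNA per cell cannot be told apart.

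The arrays resembled each other over all 41345 probe sets, with a Pearson r of 0.977, and the r over the 88 genes was 0.989. Of 10 adipocyte markers 9 were named, and all of these lay at or above 7.65 in A/J-12SM and 6.63 in A/J fat. These markers were mixed, with a median difference of 0.29. In A/J-12SM fat 5 of 9 were higher (55.6%), against 53.6% of all named genes. Above 0.75 lay 2 (22.2%), against 2.86% of all named genes, Slc2a4 (7.65 and 6.63, 1.03) and Adipoq (11.26 and 10.32, 0.93). The 4 lower ones ran from -0.22 for Lipe to -0.02 for Fabp4. The part of adipocyte RNA in the differences of the 88 genes was not tested. Lists of other cell types set the arrays further apart. All 10 hepatocyte markers were higher in A/J-12SM fat, by 1.71 to 3.47, and all 10 named male germ cell markers were lower, by differences of -4.99 to -1.25. The 8 macrophage markers were also lower, with a median difference of -0.45.

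Complexes I to IV of the inner mitochondrial membrane pass electrons from NADH and succinate to oxygen, and complexes I, III and IV pump protons as they do so. ATP synthase lets the protons flow back and makes ATP from ADP and phosphate. White adipocytes hold fewer mitochondria than brown adipocytes do, and use them for fatty acid oxidation, for triglyceride synthesis and for adipogenesis. Nuclear genes for these subunits are known targets of the transcription factors NRF1, GABPA, YY1 and the estrogen-related receptors.

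Promoters, taken as 250 bases before and 50 bases after a gene's start in RefSeq on GRCm38.p6, were on hand for 70 of the 88 genes. They were searched on both strands for GCGCANGCG of NRF1, CCGGAAG of GABPA, AAGATGGC of YY1, TCAAGGTCA of the estrogen-related receptors, TGACGTCA of the cyclic AMP response element and TATAAA of the TATA box. The NRF1 letters can overlap themselves on the opposite strand, and a gene was counted once. As examples, the 250 bases before the start are printed 5′ to 3′ for Cox6a1, Atp5k, Cox7b and Cox7b2. They do not stand for the 70 genes. Among the 12 complex IV genes with a promoter, only Cox6a1 held NRF1 letters. Cox6a1 encodes the widely expressed form of subunit 6a, and Atp5k encodes subunit e of ATP synthase. Cox7b is the common form of subunit 7b. Cox7b2 is its testis form and the gene with the largest difference between the arrays. Capitals mark the matches: NRF1 and GABPA in Cox6a1, NRF1 in Atp5k and a TATA box on the opposite strand in Cox7b2.
Cox6a1 (chr5:115348959-115349208, minus strand): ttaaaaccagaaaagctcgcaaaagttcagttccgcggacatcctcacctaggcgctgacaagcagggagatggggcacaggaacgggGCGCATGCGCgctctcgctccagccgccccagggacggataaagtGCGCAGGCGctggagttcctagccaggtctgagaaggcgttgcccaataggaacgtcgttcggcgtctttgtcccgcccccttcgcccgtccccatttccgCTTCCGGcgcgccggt
Atp5k (chr5:108434400-108434649, minus strand): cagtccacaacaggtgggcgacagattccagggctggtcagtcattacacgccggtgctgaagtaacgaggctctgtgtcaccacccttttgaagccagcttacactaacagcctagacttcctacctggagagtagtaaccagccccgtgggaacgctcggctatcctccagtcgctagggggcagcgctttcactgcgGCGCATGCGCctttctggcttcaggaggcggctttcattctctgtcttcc
Cox7b (chrX:106015450-106015699, plus strand): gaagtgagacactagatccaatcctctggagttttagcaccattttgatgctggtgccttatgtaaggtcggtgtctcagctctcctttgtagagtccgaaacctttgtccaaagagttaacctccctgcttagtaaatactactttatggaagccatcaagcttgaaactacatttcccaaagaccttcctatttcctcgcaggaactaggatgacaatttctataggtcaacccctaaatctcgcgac
Cox7b2 (chr5:71548206-71548455, minus strand): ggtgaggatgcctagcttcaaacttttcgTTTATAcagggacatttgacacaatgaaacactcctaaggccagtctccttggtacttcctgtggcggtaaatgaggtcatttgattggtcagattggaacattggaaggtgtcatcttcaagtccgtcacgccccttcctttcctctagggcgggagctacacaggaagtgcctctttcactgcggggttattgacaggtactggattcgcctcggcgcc

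In Cox6a1, the NRF1 letters lay 162 to 153 and 117 to 109 bases before the start and the GABPA letters 16 to 10 bases before it. In Atp5k, the NRF1 letters lay 50 to 41 bases before the start, and a GABPA match followed after the start, outside the stretch printed. Cox7b had none of the 6 motifs in its window. In Cox7b2, the TATA box letters lay 221 to 216 bases before the start. These are matches of letters and not measured binding.

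The NRF1 letters were present in 28.6% of the 70 genes with a promoter (20 genes). The share was 16.4% of 2443 genes with a mean level of at least 8 and 7.03% of all 27025 genes with a promoter. GABPA letters were found in 27.1% (19 genes), against 19.5% and 9.93% of the same comparison sets. YY1 letters stood in 14.3% (10 genes), against 5.77% and 3.19%, and the letters of the estrogen-related receptors in 2.86% (2 genes), against 0.327% and 0.466%. The cyclic AMP response element was matched in 4.29% (3 genes), against 3.19% and 2.03%. The TATA box was matched in 10.0% (7 genes), against 9.05% and 15.7%. The median difference between the arrays was 0.07 in the 20 genes that hold the NRF1 letters and 0.08 in the other 50. For GABPA, the medians were 0.09 with and 0.07 without the letters, and for YY1 0.13 with (8 of 10 genes higher in A/J-12SM fat) and 0.07 without. Both genes with the letters of the estrogen-related receptors were lower, with a median of -0.12, against 0.08 in the rest. These sets are small and no test was made.

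**Figure D1:**
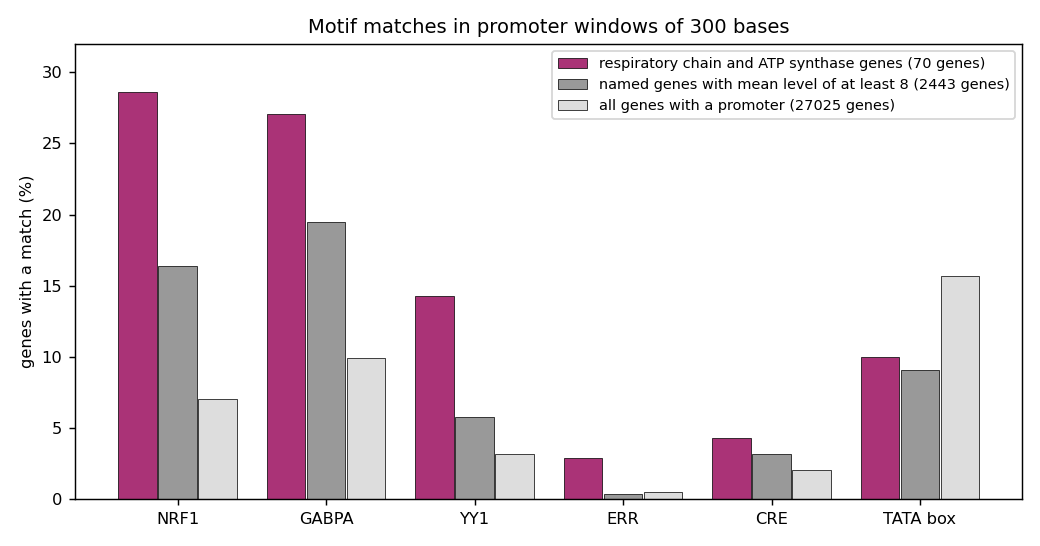
Percent of genes with each motif in any of their 300-base promoters, for the 70 respiratory chain and ATP synthase genes with a promoter, for the 2443 genes with a mean level of at least 8 and for all 27025 genes. NRF1 reached 28.6%, 16.4% and 7.03% in these sets, and the TATA box 10.0%, 9.05% and 15.7%.

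The levels of most of the 88 genes lay close together on the 2 arrays. The median difference, A/J-12SM minus A/J, was 0.07 on the log2 scale, with a range of -1.76 to 0.74, and the median over all named genes was 0.03. In A/J-12SM fat 56 of the 88 genes (63.6%) were higher, against 53.6% of all named genes. At a mean level of at least 8, 26 of 37 (70.3%) were higher, against 44.5% of 3105 named genes. At 6 to 8, 18 of 29 (62.1%) were higher, against 48.0%. Below 6, 12 of 22 (54.5%) were higher, against 57.6%, so the dim genes showed no excess. Of the 88 genes, 52 were higher after centring on the median of all named genes, 60 after a loess correction and 63 after quantile normalization. Centring makes as many of all named genes higher as lower by construction. Their share was not computed under the other 2 scalings.

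Large differences were few. Past 0.75 in size, the limit that the study used, lay 3 of the 88 genes (3.41%), all lower in A/J-12SM fat, and 7.14% of all named genes. By direction, 4.28% of all named genes were below -0.75 and 2.86% above 0.75, where none of the 88 was. Above 0.25 lay 16 genes (18.2%), against 24.0% of all named genes, and below -0.25 lay 6 genes (6.82%), against 20.1%. A difference of 0.75 corresponds to 1.68-fold and one of 0.25 to 1.19-fold.

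Dim genes vary more on arrays, and the 3 genes past the limit were dim. Among the 37 genes with a mean level of at least 8, none was past 0.75, against 3.09% of all named genes this bright. Above 0.25 lay 3 of the 37 (8.11%), against 12.9%, and none lay below -0.25, against 17.2%. The differences of these 37 genes ran from -0.21 to 0.31, with an SD over genes of 0.12, and over all bright genes the SD was 0.34. In the 22 genes with a mean level below 6, the SD was 0.60, and over all named genes below 6 it was 0.49. In the 19 of the 22 genes within the limit the SD was 0.32. That cut lowers an SD by itself and was not made over all named genes.

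**Figure D2:**
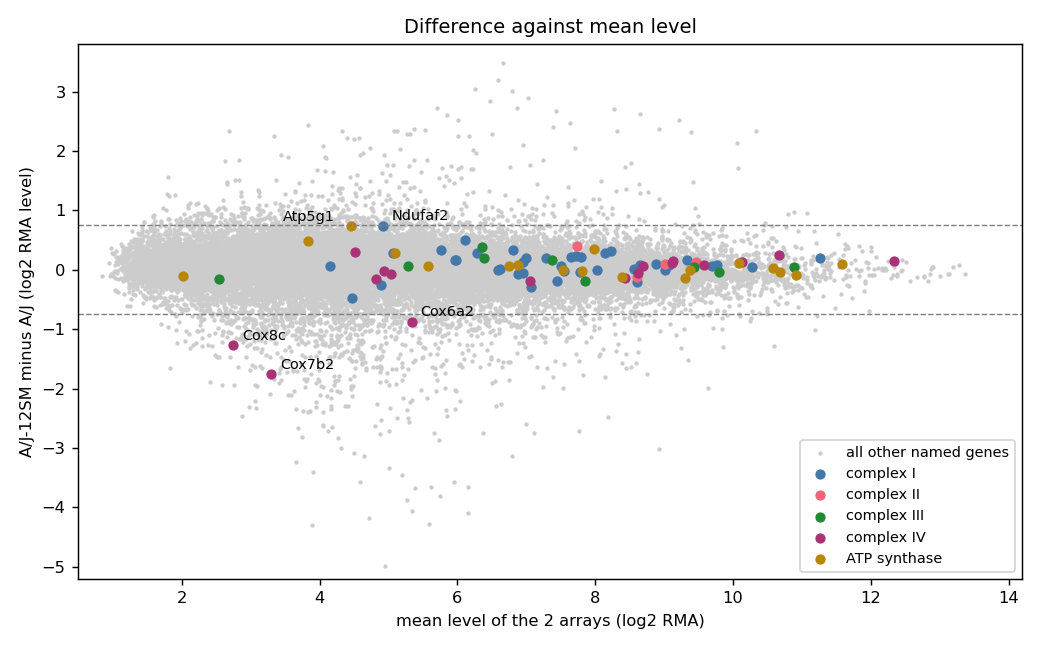
Difference between the arrays (A/J-12SM minus A/J, log2) against the mean log2 level of the 2 arrays, for all named genes in grey and for the 88 genes in color by complex. Dashed lines mark 0.75 and -0.75. Cox7b2, Cox8c and Cox6a2 lie below the lower line at mean levels under 6, and Atp5g1 and Ndufaf2 lie just under the upper line at 0.74.

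Without the tissue-specific forms of complex IV subunits, 71 subunits remained, and they lay between -0.25 and 0.74. Of these, 52 were higher in A/J-12SM fat (73.2%), with a median difference of 0.08. The share was 69.7% over all 76 subunits and 53.6% over all named genes. The 5 tissue-specific forms, which include all 3 genes past the limit, had a median of -0.87. The complexes are taken in turn, in the order in which electrons and then protons pass through them.

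Complex I oxidizes NADH and reduces ubiquinone. Of its 32 subunits measured, out of 37 listed, 26 were higher in A/J-12SM fat and 6 lower, with a median difference of 0.10 and a range of -0.25 to 0.50. The 6 nuclear core subunits measured had a median of 0.09. Among them Ndufv1, which binds NADH and FMN, had a level of 8.38 in A/J-12SM and 8.07 in A/J fat (difference 0.31). Ndufs7, which holds the iron-sulfur cluster next to ubiquinone (9.41 against 9.24), and Ndufs3, a core subunit of the peripheral arm (6.06 against 5.90), were also slightly higher. Ndufv2 (8.57 against 8.55), Ndufs8 (9.01 on both arrays) and Ndufs1 (7.76 against 7.80) differed by less than 0.05, and Ndufv2 and Ndufs8 changed sign under at least 1 other scaling.

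The accessory subunits surround this core and are needed for assembly and stability. Of 26 measured, 22 were higher in A/J-12SM fat. Ndufb8, in the membrane arm, had the highest difference, with a level of 6.36 in A/J-12SM and 5.86 in A/J fat (0.50). Ndufb7, at the face of the membrane arm toward the intermembrane space, had 6.96 and 6.64 (0.33).

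At the other end, Ndufa11, a membrane subunit whose brightest probe set is of uncertain place, had a level of 8.50 in A/J-12SM and 8.71 in A/J fat (-0.21), and Ndufs4, required for a stable NADH-binding module, had 7.35 and 7.54 (-0.19). Ndufb11 had the lowest difference of the subunits, with 4.76 and 5.01 (-0.25), at a level where values scatter more. The brightest probe sets showed small differences, with 11.37 and 11.17 for Ndufb9 (0.19) and 10.30 and 10.25 for Ndufa3 (0.05).

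Assembly factors of complex I did not share a direction, since 3 were higher and 5 lower in A/J-12SM fat. Ndufaf2, a chaperone that binds a late assembly intermediate, had a level of 5.28 in A/J-12SM and 4.55 in A/J fat (0.74), just short of the limit. Ndufaf5, which hydroxylates an arginine of the core subunit Ndufs7, had 4.23 and 4.70 (-0.47). Ndufaf2 and Ndufaf5 both lay at low levels, where values scatter more. Ndufaf4, which acts in early assembly, had 6.93 and 7.22 (-0.29). The remaining factors ran from -0.08 for Ndufaf7 to 0.28 for Ndufaf6 and Ndufaf8.

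Complex II, the succinate dehydrogenase of the citric acid cycle, is encoded wholly in the nucleus. Sdha, its flavoprotein, had a level of 9.54 in A/J-12SM and 9.40 in A/J fat (0.14). Sdhb, the iron-sulfur subunit, had 7.94 and 7.54 (0.41), the highest difference among the 4. The membrane anchors bind ubiquinone, and they went opposite ways, with 9.07 and 8.97 for Sdhc (0.10) and 8.54 and 8.66 for Sdhd (-0.12).

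Complex III moves electrons from ubiquinol to cytochrome c. Of its 8 subunits measured, 6 were higher in A/J-12SM fat, with a median difference of 0.06. Of the electron-carrying subunits, cytochrome c1 (Cyc1) had a level of 7.75 in A/J-12SM and 7.94 in A/J fat (-0.19), and the Rieske iron-sulfur protein (Uqcrfs1) had 6.48 and 6.28 (0.19).

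The core proteins of complex III hardly differed between the arrays. Uqcrc1 had a level of 9.46 in A/J-12SM and 9.41 in A/J fat, and Uqcrc2 had 9.77 and 9.81, a difference of -0.04 that changed sign under at least 1 other scaling. Of the small subunits, Uqcr11 had the highest difference of the complex, with 6.55 and 6.17 (0.38), and Uqcrb, also read by a bright probe set of uncertain place, had 10.90 and 10.85 (0.05). Uqcrh, the hinge protein next to cytochrome c1, had 7.46 and 7.30 (0.17).

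Complex IV, cytochrome c oxidase, reduces oxygen to water. It differs from the other complexes in that several of its subunits exist as a common form and as a form of muscle, testis or lung, encoded by separate genes. Of the 15 subunits measured, 8 were higher and 7 lower in A/J-12SM fat. The common forms and the tissue forms are taken separately.

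The 10 common forms lay between -0.15 and 0.25, with a median of 0.10, and 7 of them were higher in A/J-12SM fat. Cox6a1, the brightest, had a level of 12.41 in A/J-12SM and 12.25 in A/J fat (0.15). Cox8a had the highest difference among them, with 10.79 and 10.54 (0.25), and Cox7b the lowest, with 8.36 and 8.50 (-0.15). Cox4i1, which binds ATP as a regulator, had 9.20 and 9.05 (0.15). The other common forms were closer still, from -0.06 for Cox5a (8.59 and 8.65) to 0.13 for Ndufa4 (10.19 and 10.06), a subunit of complex IV once assigned to complex I. Cox6b1 had 9.61 and 9.54 and Cox7a2 had 8.72 and 8.65.

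The tissue forms included all 3 genes past the limit. Cox7b2, the testis form of subunit 7b on chromosome 5 (71442823 to 71548205 on GRCm38.p6), had a level of 2.42 in A/J-12SM and 4.18 in A/J fat, a difference of -1.76, or 3.38-fold lower. Cox8c, the testis form of subunit 8 on chromosome 12 (102899306 to 102900534), had 2.11 and 3.38, a difference of -1.27, or 2.42-fold lower. The third testis form, Cox6b2, had 4.74 and 4.89 (-0.16) and stayed inside the limit. All these levels are low, and without detection calls they cannot be separated from background.

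Male germ cell markers were also lower in A/J-12SM fat. The 10 markers, which include the transition proteins Tnp1 and Tnp2 and the protamine Prm1, had a mean level of 3.41 in A/J-12SM (range 1.65 to 4.58) and 6.57 in A/J fat (range 4.11 to 8.20). Every one of the 10 was below -0.75, with a median of -3.49. Cyct, the testis form of cytochrome c and not among these markers, had 3.48 and 3.38 (0.10). The part of germ cell RNA in the differences of Cox7b2 and Cox8c was not tested.

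Cox6a2, the heart and skeletal muscle form of subunit 6a on chromosome 7 (128205435 to 128206366), had a level of 4.90 in A/J-12SM and 5.77 in A/J fat, a difference of -0.87, or 1.83-fold lower. Of 9 skeletal muscle markers 7 were higher in A/J-12SM fat, with a median difference of 0.22, but 7 of the 9 lay below a level of 6 on both arrays. The 2 brighter ones split, with 8.96 and 7.64 for Acta1 (1.33) and 5.73 and 6.19 for Casq1 (-0.47). The mean level of the 9 was 4.71 in A/J-12SM (range 2.64 to 8.96) and 4.48 in A/J fat (range 2.37 to 7.64). Of the 4 heart muscle markers, 2 were higher and 2 lower, and their mean levels were 4.23 in A/J-12SM and 4.12 in A/J fat. The part of muscle RNA in the difference of Cox6a2 was not tested. Cox4i2, the lung form of subunit 4, which is linked to oxygen sensing, was the tissue form higher in A/J-12SM fat, with 4.66 and 4.36 (0.31).

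The muscle and brown fat forms Cox7a1 and Cox8b, which were left out of the 88, went the other way. Cox7a1 had a level of 4.78 in A/J-12SM and 4.17 in A/J fat (0.61), and Cox8b had 6.88 and 5.58 (2.46-fold higher). Among brown and beige adipocyte markers, which include both of these, 4 of 9 were higher and 5 lower in A/J-12SM fat. Past 0.75 in size lay 55.6% of the 9, against 7.14% of all named genes. Below -0.75 lay 3, Ucp1, the uncoupling protein of brown fat (4.17 and 7.74, -3.58), Elovl3 (4.33 and 7.98, -3.65) and Otop1 (4.65 and 7.01, -2.36). Above 0.75 lay 2, Cox8b and Cidea (6.92 and 5.20, 1.72).

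Relatives that are not complex IV subunits were little different. Cox7a2l, which joins complexes III and IV into supercomplexes, had a level of 6.95 in A/J-12SM and 7.14 in A/J fat (-0.19), and Ndufa4l2, a hypoxia-induced relative of Ndufa4, had 5.01 and 5.08 (-0.07).

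**Figure D3:**
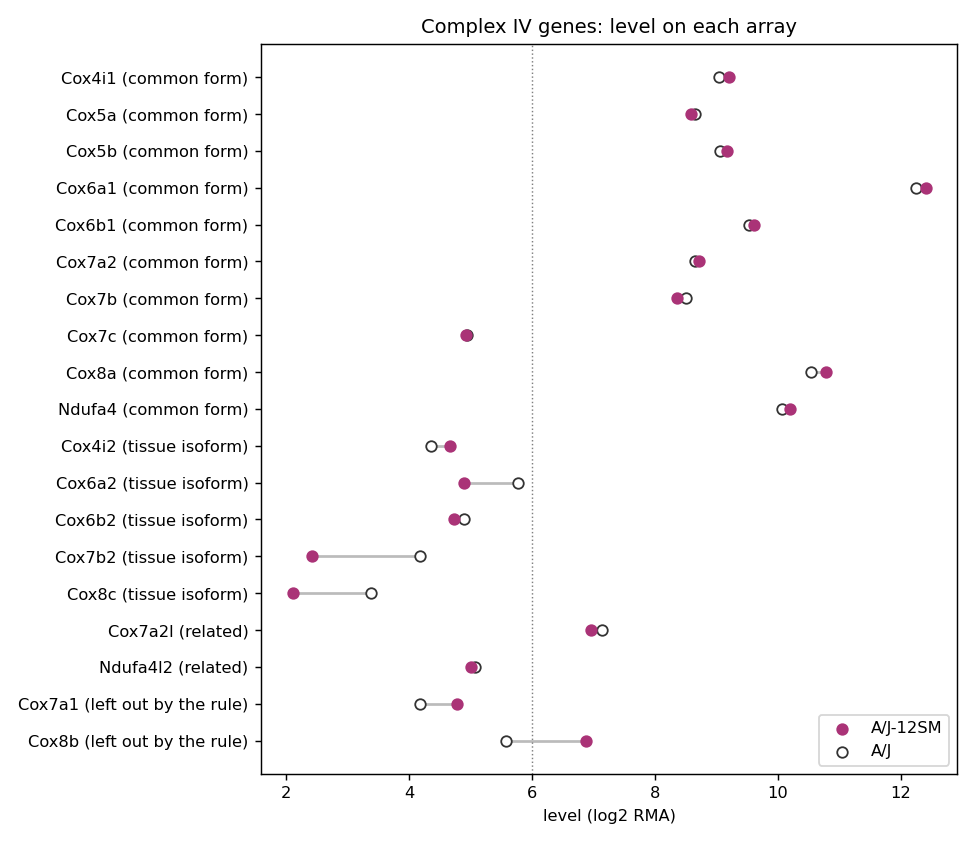
Log2 RMA level of each complex IV gene on the A/J-12SM array and on the A/J array, with 1 point per array and no error bar, since each strain has 1 array. Cox7b2, Cox8c and Cox6a2 are lower in A/J-12SM, with differences of -1.76, -1.27 and -0.87, while the common forms lie between -0.15 and 0.25. The last 2 genes, Cox7a1 and Cox8b, are not among the 88. The dotted line marks a level of 6, and levels of different genes are not comparable with each other.

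ATP synthase joins a catalytic F1 head to a membrane rotor and a stalk. Of the 17 subunits measured, 10 were higher and 7 lower in A/J-12SM fat, with a median difference of 0.06. The 5 subunits of the F1 head were almost level. Atp5b, the catalytic beta subunit, had 11.63 in A/J-12SM and 11.53 in A/J fat (0.10), and Atp5a1, the alpha subunit, had 10.59 and 10.56 (0.02). Over the 5 subunits the differences ran from -0.02 for Atp5d to 0.10 for Atp5b.

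The c subunit, which forms the rotor ring that turns as protons pass, is encoded by 3 genes whose mature proteins are alike. Atp5g1 had a level of 4.83 in A/J-12SM and 4.09 in A/J fat (0.74), the highest difference of ATP synthase. This lies just short of the limit, at a low level where values scatter more. The other 2 genes differed little. Atp5g2, read by a probe set of uncertain place, had 10.14 and 10.02 (0.12), and Atp5g3 had 8.34 and 8.45 (-0.12).

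The peripheral stalk holds the head still against the rotor. Atp5o, which joins the stalk to the head, had a level of 5.23 in A/J-12SM and 4.95 in A/J fat (0.28), while Atp5pb (9.37 and 9.38), Atp5h (10.87 and 10.95) and Atp5j (6.77 and 6.72) were within 0.10 of 0. The small subunits of the membrane part include those that join ATP synthase into dimers. Atp5k had 8.15 and 7.81 (0.34), whereas Atp5l, subunit g, had 9.23 and 9.37 (-0.14). Atp5j2, subunit f, had 4.07 and 3.58 (0.48), at a low level.

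**Figure D4:**
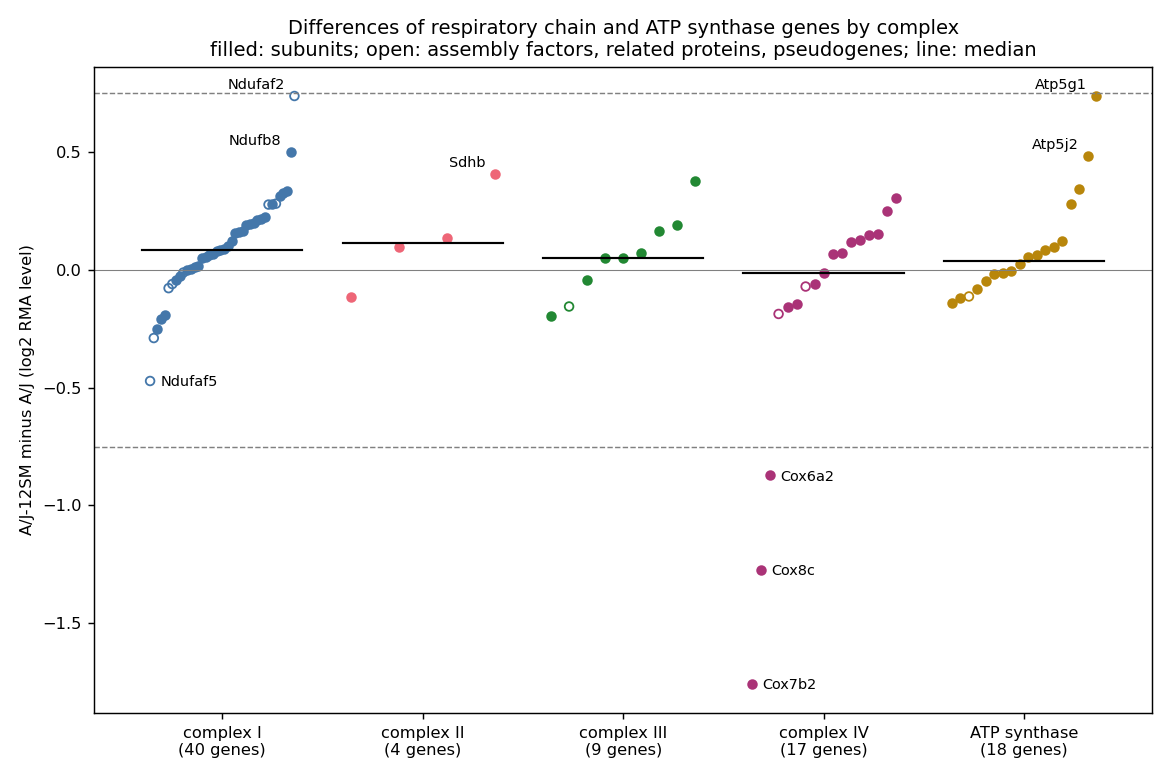
Difference between the arrays (A/J-12SM minus A/J, log2) for each of the 88 genes, by complex, with 1 point per gene, open for genes that are no subunit, and the median of each complex as a line. The medians are 0.09 for complex I, 0.12 for complex II, 0.05 for complex III, -0.01 for complex IV and 0.04 for ATP synthase, and the 3 lowest points all belong to complex IV.

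Only 2 of the 88 genes lie on chromosome 12, which differs by design between the strains. The first is Cox8c, whose copy is of SM/J origin in A/J-12SM and of A/J origin in A/J mice. The part of this origin in its difference was not tested. The second, Atp5mpl, a small subunit of ATP synthase (111961374 to 111967009), had a level of 7.53 in A/J-12SM and 7.54 in A/J fat, a difference close to 0 whose sign changed with the scaling. All the other genes are of A/J origin in both strains by design.

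Many of these genes have near-identical pseudogenes, and probe sets can read more than 1 copy. Ordered by number, 98.93% of single-gene probe sets with a position had their own gene's chromosome as the most frequent one among their 20 neighbours. For 82 of the 88 genes, at least 15 of the 20 neighbours of the brightest probe set were on the gene's chromosome. The brightest probe sets of Cox5b, Atp5g2 and Atp5h lay among those of another chromosome, so their levels are uncertain. The probe set on their own chromosome gave 3.97 in A/J-12SM and 3.75 in A/J fat for Cox5b (0.22). It gave 9.34 and 9.30 for Atp5g2 (0.04) and 4.40 and 4.67 for Atp5h (-0.26). The brightest probe sets of Ndufa11, Uqcrb and Cox7b lay among probe sets of mixed chromosomes, and their levels are uncertain too. The probe set of Ndufa11 on its own chromosome gave 4.75 and 4.88 (-0.13), and a second one of Cox7b gave 3.17 and 3.68 (-0.51). For Uqcrb, the probe set there also names Gm10767, and it gave 4.38 and 4.32 (0.07). No gene had probe sets that differed in sign by more than 0.25 each.

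Other genes of mitochondrial energy metabolism showed how far the small differences were shared. Of 38 assembly factors outside the selection, out of 40 listed, 22 were higher in A/J-12SM fat, with a median difference of 0.02. Tmem70, which assists assembly of ATP synthase, had a level of 7.70 in A/J-12SM and 7.20 in A/J fat (0.50). Of 15 electron carriers and ubiquinone enzymes, out of 16 listed, 7 were higher, with a median of -0.01. Cytochrome c (Cycs) had 10.40 and 10.60 (-0.20), and Etfdh, which feeds electrons from fatty acid oxidation to ubiquinone, had 9.55 and 9.96 (-0.40). In the other direction, the ubiquinone synthesis genes Coq4 (7.40 and 7.02, 0.38) and Pdss2 (5.67 and 5.32, 0.35, at a low level) were higher in A/J-12SM fat.

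Regulators of mitochondrial biogenesis split evenly, with 8 of 17 higher and a median of -0.02. Ppargc1a, the coactivator that drives mitochondrial gene expression, had a level of 5.01 in A/J-12SM and 5.20 in A/J fat (-0.19). Nrf1 had 5.76 and 5.83 (-0.07), and Gabpa had 7.60 and 7.91 (-0.31). Tfam, which packages mitochondrial DNA and is needed for its transcription, had 5.31 and 5.90 (-0.59). Others were higher, with 6.37 and 6.04 for Polg (0.33), the polymerase that copies mitochondrial DNA, and 5.02 and 4.59 for Twnk (0.43), its helicase. Yy1, which lies on chromosome 12, had 8.29 and 8.15 (0.15). Ppargc1a, Nrf1, Tfam and Twnk lay below a level of 6 on both arrays, where values scatter more.

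Among 12 of 13 listed citric acid cycle genes, 7 were higher in A/J-12SM fat, with a median of 0.01. Citrate synthase (Cs) had an RNA level of 10.26 in A/J-12SM and 10.59 in A/J fat (-0.33), and mitochondrial content was not measured. Of 18 genes of the mitochondrial membranes and of protein import, out of 19 listed, 8 were higher, with a median of -0.08. The 71 mitochondrial ribosomal protein genes had a median of -0.01 with 34 higher, and the 63 cytosolic ones a median of -0.09 with 20 higher. Beside these lists, the respiratory chain and ATP synthase genes had a median of 0.07 with 56 of 88 higher, and no test bears on the gap.

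**Figure D5:**
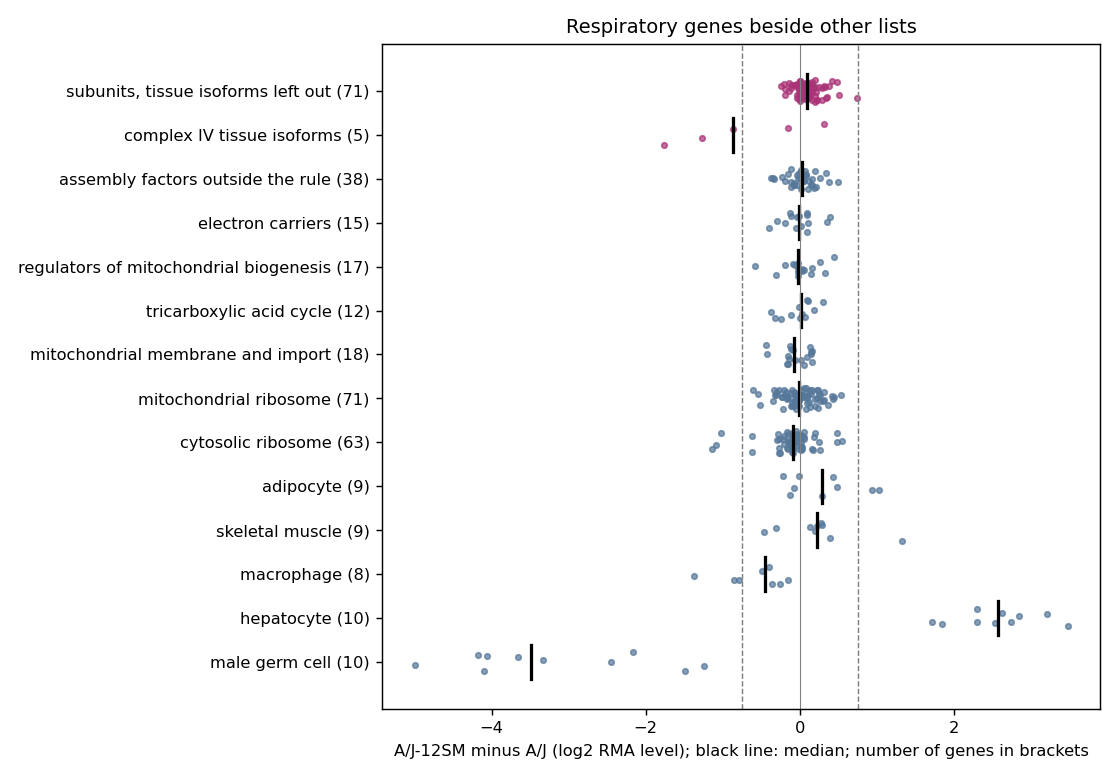
Difference between the arrays (A/J-12SM minus A/J, log2) for the 71 subunits without tissue forms, the 5 tissue forms of complex IV and other gene lists, with 1 point per gene, the median of each list as a black line and dashed lines at 0.75 and -0.75. The 71 subunits have a median of 0.08 and the tissue forms one of -0.87, and the other mitochondrial lists run from -0.08 to 0.02, while hepatocyte markers lie far to the right and male germ cell markers far to the left.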

How the data were processed

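RNA pooled from 3 male mice per strain was hybridized to Affymetrix mouse whole-transcript arrays (version 2.0), 1 per strain. The deposited values are log2 levels, computed for every probe set by the authors with RMA in Affymetrix Expression Console 1.3.0. RMA equalizes the distributions of the arrays, so a shift shared by most genes would be removed. The genome build of the probe annotation was not given in the sources used here. Having 1 array per strain limits the precision, and no detection call was used.

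Of 41345 probe sets, 23521 named 1 gene in the platform annotation, 1820 named several and 16004 none. The last 2 kinds were left out. The probe set with the highest mean level stood for a gene. Differences were computed in Python 3.11.15 with pandas 2.3.3, NumPy 2.4.6, SciPy 1.17.1 and statsmodels 0.14.6, and the scripts were tested on simulated data. Positions and promoters came from RefSeq on GRCm38.p6, and only exact letters of a motif counted. A probe set was placed on a chromosome where at least 15 of its 20 neighbours by number lay there.

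The genes and lists were chosen with earlier results of these data known. The rule named genes past 0.75 and, per complex, the 2 highest and 2 lowest differences and the 2 highest mean levels among subunits whose brighter array reached 6. It also named isoform pairs, complex II, genes on chromosome 12, and up to 3 of the largest differences per other list. All other genes named were chosen after their values were seen. Alternatives were other scalings, the mean over probe sets, a minimum level of 6, subunits only, updated symbols, probe sets naming several genes, other thresholds and the mean.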

Additional observations from a re-analysis of the deposited data

How the results depend on the processing

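Of 76 values under 13 other settings, 4 moved, a median by over 0.1 (log2) or a count by over 1.5 times. That limit is about as wide as the medians themselves, and 4 medians changed sign, those of complex IV and ATP synthase given here. Updated symbols changed none of the 88 genes, so 8 of the 76 values could not move. The median difference of the 88 genes ran from 0.04 to 0.10, and the shift of all genes was 0.03. Among genes whose brighter array reached a level of 6, 0 genes were past 0.75 in place of 3, and the median of complex IV was 0.10 in place of -0.01, since this leaves out the dim tissue forms. The ATP synthase median was then -0.0048, in place of 0.04. The complex IV median was 0.07 with subunits only and 0.03 with probe sets naming several genes. At a threshold of 0.5, 6 genes were past it, at 0.25 22 genes and at 1.0 2 genes. At 0.25, 18.2% of the 88 genes were above and 6.82% below, against 24.0% and 20.1% of all named genes. At 0.5 and 1.0, the share of all named genes was not computed. Signs changed for 4 genes after centring, 6 after loess and 7 after quantile normalization. Leaving out the genes whose probe set lay among those of another chromosome, an alternative chosen after seeing the data, kept the median at 0.07. No paired analysis was possible because there is 1 array per strain, and for the same reason no array could be left out. Low signal limits the values below a level of 6 most.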
